A study of Marchantia polymorpha with 12 samples.

Results

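MpERF16 (Mp4g22290) and MpERF17 (Mp4g22280) are a pair of genes with consecutive identifiers on chromosome 4 of the liverwort Marchantia polymorpha, and both are named as members of the AP2/ERF family of transcription factors. They are 2 of the 20574 gene IDs in the deposited count table. The pair was selected on these counts, which were higher in a fatty acid desaturase mutant than in wild type in mock and wounded plants. The genotype differences of the pair are therefore described without a test, and tests are given for wounding, a contrast that was not part of the choice but shares its libraries.

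AP2/ERF proteins share the AP2 domain, which binds DNA. In flowering plants, ethylene response factors (ERFs) bind GCC-box elements in promoters and act in responses to ethylene, jasmonate, wounding and pathogens. Plastid and endoplasmic reticulum desaturases supply the polyunsaturated fatty acids that plants turn into OPDA and jasmonates after wounding. No role in Marchantia is assigned here to MpERF16 or MpERF17 themselves.

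RNA was sequenced from 12 libraries in 4 groups of 3: the wounded double mutant, the mock double mutant, wounded Tak-1 and mock Tak-1. Tak-1 is a male wild-type accession. The titles call the double mutant Mpfad3fad7 and the growth protocol calls it Mpdes6fad5, and neither gives its alleles or the number of lines. Plants had grown for 3 weeks on agar, were wounded with tweezers or left as mock, and were frozen after 2 h. Each library came from a separate pool of 6 to 8 plants, of which apical fragments without gemma cups were taken under the tissue label "Leaflets". In bulk tissue, fewer cells of a type and less RNA per cell cannot be told apart.

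Library totals ran from 19121900 to 30821817 counts. One header stands on a pair of wounded mutant columns, so these libraries are called A and B here and have no replicate number. Of 4 desaturase genes looked up as a check of the labels (MpFAD3, MpDES5, MpDES6 and MpFAD5), none was called lower in the mutant. MpDES5 stands in neither name of the mutant, and MpFAD7 is not among the 4. MpFAD5 was called higher in mock (log2 fold change 0.46, edgeR adjusted p = 0.0133) and MpDES5 after wounding (0.19, edgeR adjusted p = 0.0368). Transcript levels do not check an edited sequence. MpGUN5, an enzyme subunit of chlorophyll synthesis taken as a marker of green thallus, had 160 to 221 CPM in wounded and 357 to 522 CPM in mock libraries. It was called higher in the mutant in mock (log2 fold change 0.39, edgeR adjusted p = 0.0265) and after wounding (0.28, edgeR adjusted p = 0.0407). The sperm protamine MpPRM had 0 or 1 count in each library, while MpDUO1, a regulator of sperm differentiation, had 57 to 98 counts in wounded and 9 to 13 counts in mock libraries. V chromosome genes took 0.308 to 0.410% of the counts in mutant libraries and 0.304 to 0.494% in Tak-1 libraries. Mutant mock library 1 correlated across genes at 0.979 to 0.985 with the Tak-1 mock libraries and at 0.979 and 0.982 with the other mutant mock libraries.

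MpERF17 was higher in every mutant library than in every Tak-1 library. In mock plants it had 15.1, 13.7 and 16.7 CPM in mutant libraries 1 to 3, against 5.27, 2.87 and 5.90 CPM in Tak-1 libraries 1 to 3. CPM are counts scaled to a common library size with TMM factors. In wounded plants it had 8.90, 11.1 and 7.15 CPM in mutant libraries 1, A and B, against 2.97, 2.53 and 4.66 CPM in Tak-1 libraries 1 to 3. The lowest mutant value, in wounded library B, still lay above the highest Tak-1 value, in mock library 3.

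The log2 fold change of MpERF17 (mutant over Tak-1) was 1.68 ± 0.27 (SE) in mock and 1.42 ± 0.27 in wounded plants, or 3.20-fold and 2.67-fold. The means behind it were 15.1 ± 1.50 CPM in mutant mock and 4.68 ± 1.60 CPM in Tak-1 mock (SD, n = 3). After wounding they were 9.04 ± 1.97 CPM in the mutant and 3.39 ± 1.12 CPM in Tak-1 (SD, n = 3). Over all 13726 tested genes, 12.4% were higher without overlap in mutant mock libraries and 14.3% in wounded mutant libraries, and called genes made up 4.52% in mock (2.00% higher) and 14.5% in wounded plants (5.03% higher). Since these contrasts chose the pair, nothing is read from the position of the members against those shares.

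MpERF16 showed the same order of genotypes from far fewer reads. In mock plants 31, 26 and 38 reads were counted in mutant libraries 1 to 3, against 13, 6 and 7 reads in Tak-1 libraries 1 to 3. In wounded plants there were 12, 21 and 15 reads in mutant libraries 1, A and B, against 3, 2 and 4 reads in Tak-1 libraries 1 to 3. Of the wounded Tak-1 libraries, 2 were at or under the floor of 3 counts that is taken here as the limit of detection. That floor corresponds to 0.0937 to 0.158 CPM per library.

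In CPM, MpERF16 was at 1.38 ± 0.191 in mutant mock and 0.359 ± 0.187 in Tak-1 mock (SD, n = 3), and at 0.670 ± 0.319 in wounded mutant and 0.122 ± 0.0475 in wounded Tak-1 libraries (SD, n = 3). Mutant and Tak-1 values did not overlap in mock or in wounded plants. The log2 fold change was 1.96 ± 0.43 (SE) in mock and 2.39 ± 0.54 after wounding. From the summed counts alone, 95 in mutant mock against 26 in Tak-1 mock, the ratio was 4.02 with a 95% exact interval of 2.58 to 6.46. For the 48 counts in wounded mutants against 9 in wounded Tak-1 the ratio was 5.27 with an interval of 2.56 to 12.2. These intervals cover counting error only. Since these contrasts chose the pair, they are not read as a test of a difference. MpERF16 passed the filter on low counts through the mutant groups, where every library had at least 10 counts, a number that 1 Tak-1 mock library and no wounded Tak-1 library reached.

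**Figure D1:**
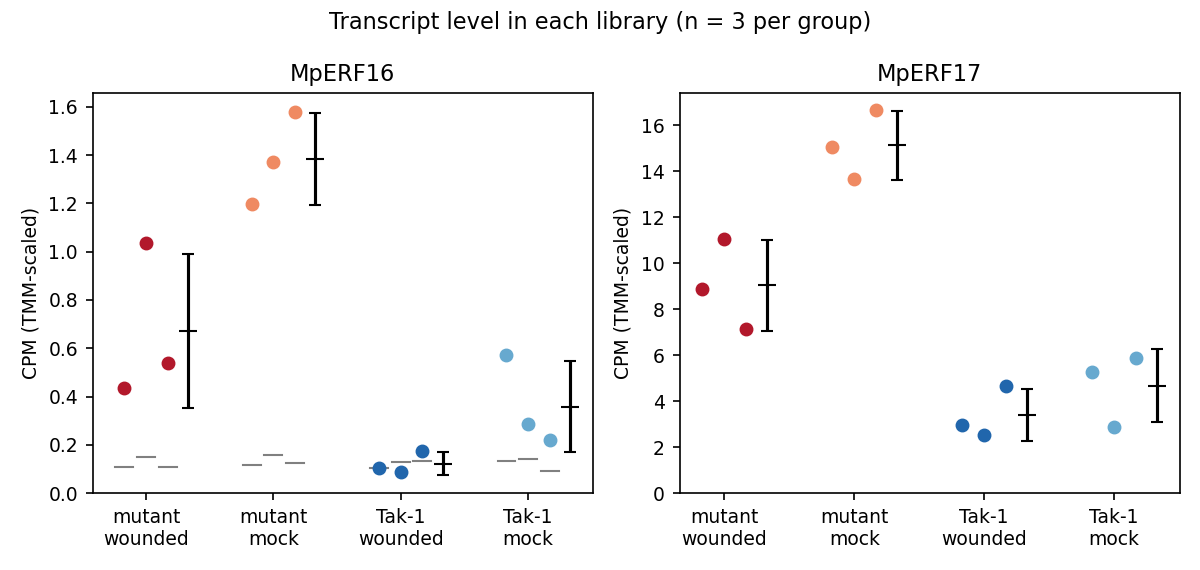
CPM of MpERF16 (left) and MpERF17 (right) in each of the 12 libraries, by group, with the mean and SD beside the points; grey ticks in the left panel mark the level of 3 counts in that library. For both genes mutant mock libraries are highest (1.20 to 1.58 CPM for MpERF16, 13.7 to 16.7 CPM for MpERF17) and wounded Tak-1 libraries have the lowest mean.

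By mean level both genes had the same order of groups: mutant mock, wounded mutant, Tak-1 mock, wounded Tak-1. For MpERF17 the steps between the first 3 groups were free of overlap, and the last pair overlapped, with 2.53 to 4.66 CPM in wounded Tak-1 and 2.87 to 5.90 CPM in Tak-1 mock. For MpERF16 the overlap lay in the middle, between wounded mutant libraries at 0.438 to 1.03 CPM and Tak-1 mock libraries at 0.219 to 0.571 CPM. Levels of MpERF16 and MpERF17 are not set against each other, because transcript lengths were not used here.

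The share of the pair's counts that fell on MpERF16 does not depend on the scaling of the libraries. It was 4.69, 8.54 and 7.01% in wounded mutant libraries 1, A and B, and 7.36, 9.12 and 8.66% in mutant mock libraries 1 to 3. In wounded Tak-1 libraries 1 to 3 it was 3.41, 3.28 and 3.64%, and in Tak-1 mock libraries 1 to 3 it was 9.77, 9.09 and 3.57%. The 95% exact binomial intervals were wide in Tak-1, from 0.400 to 11.3% in wounded library 2 and from 3.41 to 18.7% in mock library 2. Shares in wounded Tak-1 lay below all shares of the mutant, but their intervals overlapped those of mutant libraries. Within groups, the library with the highest MpERF16 level also had the highest MpERF17 level in 3 of 4 groups, the exception being Tak-1 mock.

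**Figure D2:**
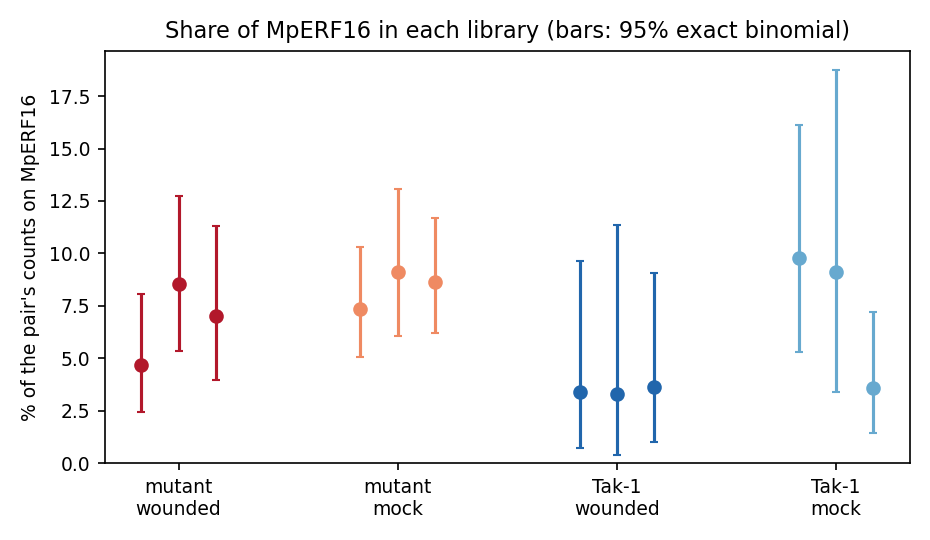
Percentage of the counts of both genes that fell on MpERF16, per library, with 95% exact binomial intervals. The 3 wounded Tak-1 libraries sit between 3.28 and 3.64%, Tak-1 mock library 3 is close to them at 3.57%, wounded mutant library 1 is at 4.69%, and the other 7 libraries lie between 7.01 and 9.77%.

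In the mutant both genes were called lower after wounding. This contrast reuses the mutant libraries in which the pair was chosen as high, so its calls are not independent of that choice. MpERF17 had 9.04 ± 1.97 CPM in wounded and 15.1 ± 1.50 CPM in mock mutants (SD, n = 3), and its groups did not overlap. Its log2 fold change (wounded over mock) was -0.75 ± 0.26 (SE; adjusted p = 0.0265, edgeR quasi-likelihood test with Benjamini-Hochberg adjustment over all tested genes). MpERF16 had 0.670 ± 0.319 CPM in wounded and 1.38 ± 0.191 CPM in mock mutants, also without overlap, with a log2 fold change of -1.07 ± 0.40 (edgeR adjusted p = 0.0405). In this comparison 51.1% of all tested genes were called (22.6% lower), and 27.3% of genes were lower without overlap, so falls of this kind were common in the table.

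The calls in the mutant did not hold when some of the libraries were left out, 1 at a time. That of MpERF17 was lost without wounded mutant library 1 (edgeR adjusted p = 0.0674), wounded library B (0.107) or mutant mock library 3 (0.0804). That of MpERF16 was lost without wounded library 1 (0.150) or B (0.131), or any of mutant mock libraries 1 (0.0537), 2 (0.0784) and 3 (0.119). It was also missed by DESeq2 (adjusted p = 0.0548) and without the filter on low counts (edgeR adjusted p = 0.0580). Each of these fits kept the negative sign.

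In Tak-1 the means of both members were lower after wounding, but neither value is read as a response: MpERF17 did not pass the test, and MpERF16 was tested there only because its mutant counts passed the filter. MpERF16 had 0.122 ± 0.0475 CPM in wounded and 0.359 ± 0.187 CPM in mock Tak-1 (SD, n = 3), with 0.0858 to 0.176 against 0.219 to 0.571 CPM and no overlap. Its log2 fold change was -1.50 ± 0.58 (edgeR adjusted p = 0.0451). MpERF17 had 3.39 ± 1.12 CPM in wounded and 4.68 ± 1.60 CPM in mock Tak-1, overlapping ranges and a log2 fold change of -0.48 ± 0.28 that did not pass the test (edgeR adjusted p = 0.162). In Tak-1, 54.9% of all tested genes were called (25.0% lower) and 28.9% were lower without overlap.

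The Tak-1 value of MpERF16 came from 9 counts in wounded and 26 counts in mock libraries, a ratio of 0.351 with a 95% exact interval of 0.145 to 0.773 for counting error. With the Tak-1 groups alone MpERF16 failed the filter. Its adjusted p was over the threshold without wounded Tak-1 library 1 (edgeR adjusted p = 0.115) or 2 (0.119), either of Tak-1 mock libraries 1 (0.201) and 2 (0.0534), any of mutant mock libraries 1 (0.0544), 2 (0.0576) and 3 (0.0560), or wounded mutant library B (0.0530), and without the filter on low counts (0.0538). Without Tak-1 mock library 1 the log2 fold change of MpERF16 was -1.01. MpERF17 passed the test in Tak-1 without wounded library 3 (log2 fold change -0.78, edgeR adjusted p = 0.0407) or mock library 2 (-0.75, 0.0285).

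The wound responses of the mutant and of Tak-1 were not shown to differ for either gene. The difference of the log2 fold changes (mutant minus Tak-1) was -0.26 ± 0.38 (SE) for MpERF17 (edgeR adjusted p = 0.811) and 0.42 ± 0.69 for MpERF16 (edgeR adjusted p = 0.837). These values do not show that the responses were alike. That of MpERF16 uses its Tak-1 value, which came from 9 counts in wounded and 26 counts in mock libraries and is not read as a response. Over all genes 3.29% were called in this comparison, 2.59% with a lower response in the mutant.

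The genes around the pair were described over the 10 gene IDs on each side in the order of the table. Of these 20, 17 passed the filter on low counts. In mock plants 2 of the 17 were called higher in the mutant and none lower, against 2.00% of all genes called higher and 2.51% called lower. Both lay on the MpERF17 side of the pair, at Mp4g22260 and Mp4g22240. After wounding, 1 of 17 was called higher (Mp4g22260) and none lower, against 5.03% of all genes called higher and 9.51% called lower. With 17 genes, the counts in mock and after wounding are not read as differences from these shares. DESeq2, which called more genes in mock than edgeR over the whole table, called 3 neighbours higher in mock and 1 after wounding. Without mutant mock library 3, Tak-1 mock library 1 or Tak-1 mock library 2, edgeR called 0 neighbours higher in mock. After wounding it called 0 higher without wounded mutant library 1 or A, or without any single wounded Tak-1 library. The neighbours were measured in the same 12 libraries as the pair.

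Mp4g22260 had 5.79, 5.81 and 7.53 CPM in mutant mock libraries 1 to 3, against 2.77, 2.34 and 3.22 CPM in mock libraries 1 to 3 of Tak-1. After wounding it had 5.25, 3.89 and 2.87 CPM in mutant libraries 1, A and B, against 1.96, 2.32 and 2.29 CPM in Tak-1 libraries 1 to 3. Genotypes overlapped in neither condition, as for the pair. The log2 fold change (mutant over Tak-1) was 1.19 ± 0.23 in mock (SE; edgeR adjusted p = 0.0164) and 0.88 ± 0.23 after wounding (edgeR adjusted p = 0.0243). The mock call was lost without mutant library 3 (0.0631) or Tak-1 library 1 (0.0512) or 2 (0.0740). The wounded call was lost without mutant library 1 (log2 fold change 0.62, adjusted p = 0.130) or A (0.0544) or without Tak-1 library 1 (0.0790), 2 (0.0515) or 3 (0.0526).

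Mp4g22260 also fell with wounding in the mutant, by 0.67 on the log2 scale (SE 0.22, edgeR adjusted p = 0.0227). This depended on wounded library A (0.0598 without it) and on B (0.0983), as well as on mock library 3 (0.0995). With the numbered libraries alone, which leave 1 wounded mutant library, the log2 fold change was -0.29 (adjusted p = 0.452), and with the replicate block it was -0.19 (0.660). In Tak-1 its log2 fold change was -0.35 (adjusted p = 0.227).

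Mp4g22240 had 3.32, 4.33 and 6.57 CPM in mutant mock libraries 1 to 3, against 1.41, 0.860 and 2.56 CPM in mock libraries 1 to 3 of Tak-1. Its log2 fold change was 1.52 ± 0.35 in mock (edgeR adjusted p = 0.0324) and 0.61 ± 0.34 after wounding (adjusted p = 0.272). The mock call was lost without mutant library 2 (0.0837) or 3 (0.118) or Tak-1 library 1 (0.112) or 2 (0.116).

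Mp4g22270, which stands next to MpERF17, had 1.27, 1.43 and 0.790 CPM in mutant mock libraries, against 0.351, 0.287 and 0.344 CPM in Tak-1 mock libraries. The groups did not overlap and the log2 fold change of 1.80 ± 0.49 missed the threshold (edgeR adjusted p = 0.0602; 0.0293 with DESeq2). After wounding it had 0.766, 0.492 and 0.180 CPM in mutant libraries 1, A and B, against 0.210, 0.515 and 0.308 CPM in Tak-1, with overlap (log2 fold change 0.49, adjusted p = 0.600; -0.074 without wounded mutant library 1). In the mutant it was lower after wounding by a log2 fold change of -1.27 ± 0.47 (edgeR adjusted p = 0.0382). The call did not hold without wounded library A (0.0790; 0.137 without B), without mutant mock library 1 (0.0923) or 2 (0.110), or without Tak-1 mock library 3 (0.0505). With the numbered libraries alone it was -0.61 (adjusted p = 0.456). Whether reads are shared between Mp4g22270 and MpERF17 was not tested, and the strandedness of the libraries is not given in the sources used here.

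On the other side of MpERF16, Mp4g22300 was too low to be tested. Its 25 counts in mutant mock libraries stood against 7 in Tak-1 mock, a ratio of 3.93 with a 95% exact interval of 1.65 to 10.7 for counting error. In wounded plants there were 15 counts in the mutant and 1 in Tak-1. Mutant mock library 2 had 0 counts of it, so the libraries of the genotypes overlapped in mock. Mp4g22310, the next ID, had 0 counts in all 12 libraries.

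The higher mock values lay in a run of IDs that was delimited after the values were seen. From Mp4g22230 (MpNBS-LRR14, named as a disease resistance protein with a leucine-rich repeat) to MpERF16, each of the 7 tested IDs had a log2 fold change of 0.75 or more in mock, but of the 5 that are neighbours of the pair only Mp4g22240 and Mp4g22260 were called. MpNBS-LRR14 (0.75 ± 0.26 SE, edgeR adjusted p = 0.135), Mp4g22250 (1.59 ± 0.80, adjusted p = 0.319) and Mp4g22270 were not. Mp4g22250 had 12, 4 and 17 counts in mutant mock libraries 1 to 3, against 2, 1 and 9 counts in Tak-1 mock libraries 1 to 3, with overlap. The 4 tested IDs beyond MpNBS-LRR14 on that side lay between -0.11 and 0.15. On the MpERF16 side the nearest tested ID, Mp4g22320, had -0.26 ± 0.10 (adjusted p = 0.189). Over the 9 tested neighbours on the MpERF17 side the median log2 fold change in mock was 0.75, and over the 8 on the MpERF16 side it was -0.06, against 0.00 for all tested genes. After wounding these medians were 0.35 and 0.03. Stretches defined by calls, a different measure from that run, also occurred elsewhere. In mock, 6 separate stretches had at least 4 of 6 consecutive tested IDs called higher, and 1 of them held the pair. That stretch, from Mp4g22240 to MpERF16, just met the rule, with 4 of its 6 tested IDs called, and the rule was not fixed in the plan. The 4 called IDs include the members, which were chosen for this difference, so nothing is read from its passing. After wounding there were 4 such stretches, and 0 of them held the pair.

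**Figure D3:**
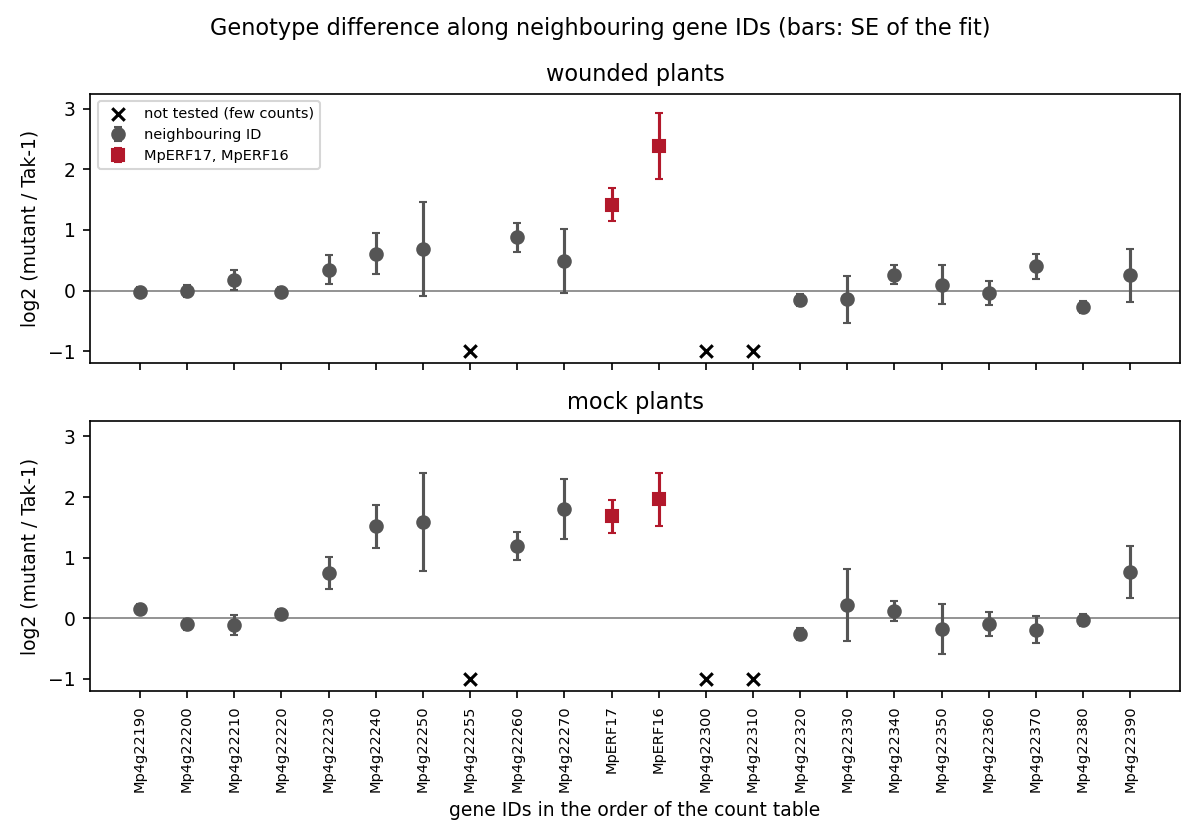
Log2 fold change (mutant over Tak-1) with its SE for the pair (red squares) and the 10 gene IDs on each side, in table order, in wounded plants (top) and mock plants (bottom); crosses mark IDs with too few counts to test. In mock plants the 7 tested IDs from Mp4g22230 to MpERF16 lie between 0.75 and 1.96, and the IDs outside that run lie near 0, except Mp4g22390 at 0.76.

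The pair was set beside the other AP2/ERF genes, which were listed by symbol. Of 28 such genes besides the pair, 19 passed the filter on low counts. None was called higher in the mutant, against 2.00% of all tested genes in mock and 5.03% in wounded plants. In mock 1 of 19 was called lower, against 2.51% of all tested genes. With so few genes, these counts are not read as a difference from those shares. The gene called lower was MpERF18 (Mp5g12480), with 15.2 ± 1.78 CPM in the mutant and 20.9 ± 2.60 CPM in Tak-1 (SD, n = 3; log2 fold change -0.47, edgeR adjusted p = 0.0291). That call was lost without mutant mock library 2 (0.0804) or 3 (0.101) or Tak-1 mock library 1 (0.107) or 3 (0.0656). The median over the 19 was 0.04 in mock, with a range of -0.47 to 0.91. Both members of the pair lay above that range. Since the pair was chosen as higher in the mutant, nothing is read from its place there.

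After wounding 6 of the 19 were called lower in the mutant, or 31.6%, against 9.51% of all tested genes. MpERF20 (Mp5g06970), known as LAXR in Marchantia for its part in reprogramming cells to stem cells, had 0.882 ± 0.203 CPM in wounded mutants and 2.70 ± 0.825 CPM in wounded Tak-1 (SD, n = 3; log2 fold change -1.60, edgeR adjusted p = 0.00801). With 1 wounded mutant library, the one that carries a replicate number, that value was -1.29 (adjusted p = 0.209), and -1.44 (0.246) with the replicate block. MpERF15 (Mp7g09350), known from Marchantia for its wound induction, had 59.3 ± 17.9 CPM in wounded mutants and 155 ± 22.4 CPM in wounded Tak-1 (-1.39, edgeR adjusted p = 0.000243). MpERF7 (Mp6g04880) had 41.8 ± 6.73 CPM in wounded mutants and 93.1 ± 10.1 CPM in wounded Tak-1 (-1.16, edgeR adjusted p = 0.000911). The median over the 19 was -0.16 and the highest value 0.43, against 1.42 and 2.39 for MpERF17 and MpERF16. This gap also follows from the choice of the pair, and nothing is read from it.

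Most of the tested family rose with wounding, while neither member of the pair was called higher. In the mutant 11 of 19 were called higher and 5 lower, against 28.6% (higher) and 22.6% (lower) of all genes, and the median log2 fold change was 0.92. In Tak-1 12 were called higher and 4 lower, against 30.0% and 25.0% of all genes, with a median of 1.37. The lowest log2 fold change among the 19 was -1.71 in the mutant and -1.04 in Tak-1, so falls also occurred in the rest of the family. The largest rises were those of MpERF21 (Mp5g22160), at 121 ± 20.3 CPM in wounded and 0.313 CPM in mock mutants and 236 ± 18.0 CPM in wounded and 0.131 CPM in mock Tak-1, and of MpERF9 (Mp4g17430), at 45.4 ± 1.01 CPM in wounded and 0.114 CPM in mock mutants. MpERF9 had 45.8 ± 5.07 CPM in wounded and 0.0764 CPM in mock Tak-1. MpERF15 had 59.3 CPM in wounded and 5.61 CPM in mock mutants (log2 fold change 3.41), and 155 CPM in wounded and 6.69 CPM in mock Tak-1 (4.54). The mock levels of MpERF21 and MpERF9 lie near the floor, so the sizes of their rises are uncertain. Of the 19, MpERF7 alone was called for a difference between the wound responses (mutant minus Tak-1, -1.62 ± 0.26 SE, edgeR adjusted p = 0.00443), against 2.59% of all genes called lower. That call was lost with the replicate block (-1.79, adjusted p = 0.0587). The log2 response of MpERF7 was 1.28 in the mutant and 2.90 in Tak-1.

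**Figure D4:**
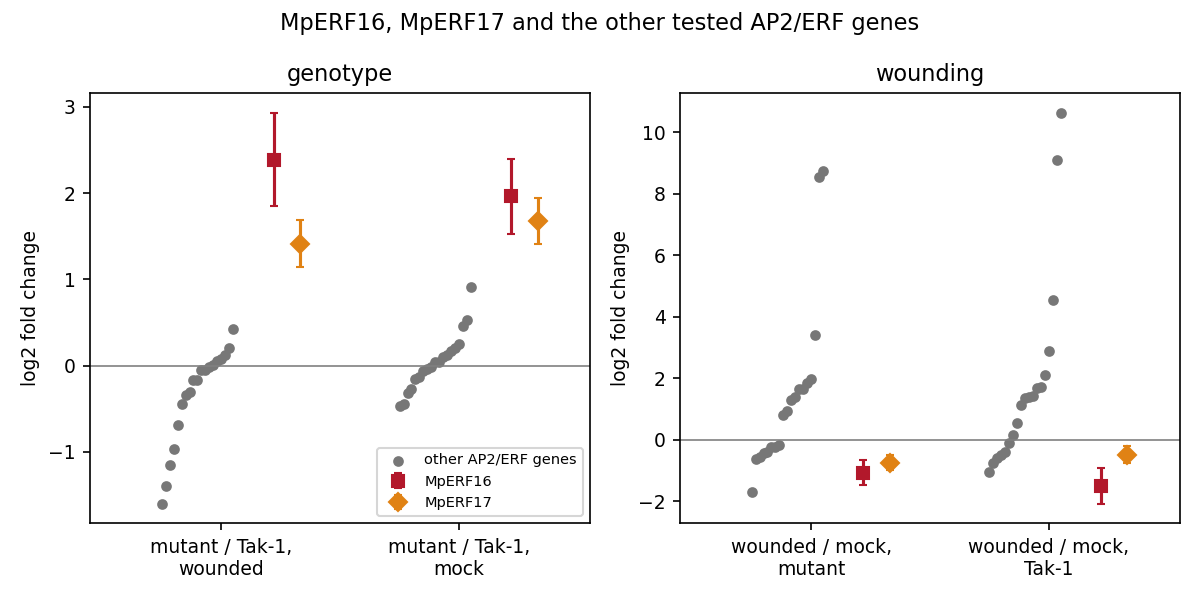
Log2 fold changes of the 19 other tested AP2/ERF genes (grey points, sorted) and of MpERF16 and MpERF17 (with SE), for genotype (left) and wounding (right); the vertical scales of the panels differ. In the genotype panel the pair, which was chosen on these contrasts, lies at 1.42 to 2.39, above all 19. In the wounding panel it lies below 0, at -1.50 to -0.48, and its Tak-1 values are not read as a response. Of the 19 other genes, 11 were called higher and 5 lower in the mutant, and 12 higher and 4 lower in Tak-1.

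Genes with a pattern like that of the pair were ranked by the root mean square difference of log2 CPM, centred on each gene's mean over the 12 libraries. Among 13725 tested genes the nearest to both members was Mp2g06930, at 0.38 from MpERF16 and 0.37 from MpERF17, on another chromosome and without a symbol. Its means were 2.09 CPM in wounded and 3.90 CPM in mock mutants, and 0.669 CPM in wounded and 0.976 CPM in mock Tak-1. MpERF17 was the second nearest to MpERF16, and MpERF16 the third nearest to MpERF17, at a distance of 0.45. The median distance of all genes was 1.14 from MpERF16 and 0.94 from MpERF17.

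The neighbour Mp4g22260 was the second nearest to MpERF17, at 0.41. Mp8g08870 was at 0.45 from MpERF17, and Mp3g09160 was at 0.50 from MpERF17 and 0.56 from MpERF16. The other genes nearest to MpERF16 were Mp5g17130, at 0.55, and MpPOD126 (Mp5g17480, named as a class III peroxidase), at 0.57. This ranking uses the genotype difference for which the pair was chosen, and it is a description without a test.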

How the data were processed

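Raw gene counts of 12 Marchantia polymorpha libraries were used as deposited, 1 column per library. The authors did not normalise these counts as far as the values show. The submitters' processing notes name Trim Galore, HISAT2, HTSeq and edgeR. For versions, genome build, annotation and strandedness the entry is: not given in the sources used here. Of 20574 IDs, 17641 matched locus tags of assembly MpTak2_v7.1, which served for symbols. No sequences are shown.

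The tests used edgeR 4.0.16 in R 4.3.3, with filterByExpr by group (13726 genes kept), TMM scaling, and a quasi-likelihood fit with 1 mean per group over all 12 libraries (8 residual degrees of freedom). A call is a two-sided Benjamini-Hochberg adjusted p under 0.05 over all tested genes. SE is the absolute log2 fold change over the square root of F. The fit was tested on simulated counts. DESeq2 1.42.0 was an alternative, with other scaling, filters, samples and a replicate block.

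The members and gene lists were chosen with earlier results of these data known. Named were the pair, the called neighbours and the 2 nearest on each side, up to 3 AP2/ERF genes per contrast by fold change, and the 5 genes nearest in pattern. MpCBF5, caught by the symbol pattern, is no AP2/ERF gene and was left out by name.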

Additional observations from a re-analysis of the deposited data

How the results depend on the processing

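Chosen as higher in the mutant, the pair stayed so in every fit, which is no test. For MpERF17 no alternative moved the log2 fold change by more than the spread between libraries (leaving out 1 library, 1.44 to 1.89 in mock and 1.25 to 1.71 wounded). For MpERF16 leaving out 1 library gave 1.67 to 2.45 in mock and 1.97 to 2.71 wounded. Of the 3 wounded mutant libraries 1 carries a number, so fits on the 10 numbered libraries, with or without the replicate block, hold 1 library in that arm, which is assumed to vary like the other groups. Calls lost there come from fewer samples. The wounded value of MpERF16 was 1.83 with the numbered libraries alone, 1.70 with these and the replicate block, and 1.47 with the counts of both genes summed.

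The wound response kept its negative sign in all fits. In the mutant, leaving out 1 library gave -1.49 to -0.84 for MpERF16 and -0.92 to -0.60 for MpERF17, and in Tak-1 -1.82 to -1.01 for MpERF16 and -0.78 to -0.28 for MpERF17. In the mutant the MpERF16 call was lost with DESeq2 (-1.09), without the low-count filter (-1.10), and with numbered libraries alone (-1.66; adjusted p = 0.0636). The MpERF17 call was lost with numbered libraries alone (-0.78, adjusted p = 0.147). In Tak-1 the MpERF16 value missed the threshold without the low-count filter (-1.52) and for the summed pair (-0.54, adjusted p = 0.117). Fitting only the groups of a contrast gave no value for MpERF16 in Tak-1, since it failed the filter there, and for the difference of responses that fit is the one over all groups. With upper-quartile scaling the median wound response of all genes moved by -0.14 in the mutant and by -0.19 in Tak-1, which changed no call of the pair.

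Deviations of same-numbered libraries from their group means correlated at -0.141 to 0.190 across genes. Libraries of different numbers were not compared, and wounded mutant libraries A and B carry no number. Whether the numbers pair the samples is therefore not decided by these values. With the replicate block the wound responses were -1.80 (MpERF16) and -0.81 (MpERF17) in the mutant and -1.52 (MpERF16) in Tak-1, none called. The block gave 4104 genes called for wounding in the mutant, 219 for the difference of responses, 190 for genotype in mock and 704 wounded, and the same libraries without a block gave 4667, 252, 304 and 876.

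The difference of responses was not called in any fit. For MpERF16 it ran from -0.064 (without Tak-1 mock library 1) to 0.74, and it was -0.14 with numbered libraries, -0.29 with the replicate block and -0.23 for the summed pair. For MpERF17 it ran from -0.47 to 0.027 (without wounded Tak-1 library 3). For Mp4g22270 the wounded genotype difference ran from -0.074 (without wounded mutant library 1) to 0.90 (without library B). The cause was not tested.

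Counts of called genes depended on the fit. DESeq2 called 799 genes for the difference of responses and 1056 in mock, against 451 and 620 by edgeR, and fitting only the mock groups called 210. Without 1 library the counts ran from 261 to 480 for the difference of responses, 138 to 727 in mock, 1153 to 2287 wounded, 6202 to 7123 for wounding in the mutant and 6675 to 7724 in Tak-1. With upper-quartile scaling the wounded genotype calls were 1263 higher and 1151 lower, against 691 and 1305, and the wounding calls were 3180 and 4595 in the mutant, against 3919 and 3100, and 3122 and 5504 in Tak-1, against 4112 and 3427. Fitting only the groups of a contrast lost the calls of Mp4g22240 (adjusted p = 0.0938) and MpERF18 (0.0936) in mock, of Mp4g22260 wounded (0.0558) and of Mp4g22270 for wounding in the mutant (0.0661). The depth of MpERF16, at 2 to 38 counts per library, limits the precision of its values.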
